A study of Danio rerio with 12 samples.

Results

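A set of 6 genes that sense or answer flow and stretch was followed across the chambers of the adult zebrafish heart: *piezo1*, *trpv4*, *pkd2*, *klf2a*, *klf2b* and *klf4*. They were chosen by name, as 3 mechanosensitive channels and 3 flow-induced Krüppel-like factors, from the 22158 genes of the deposited count table. Earlier results of these data were known when they were chosen. The study itself reports *piezo1* as enriched in the bulbus arteriosus and sinus venosus. All 6 were in the table, and all 6 were among the 19145 genes that passed the filter on low counts.

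Cells of the heart and vessels are pulled by the blood that runs over them and by each beat. Piezo1 is a cation channel that opens when the membrane is stretched, Trpv4 is a cation channel that opens to swelling, warmth and shear, and Pkd2 is a channel subunit that works with Pkd1, also in cilia that bend with flow. Calcium entry and a kinase cascade then raise the zinc finger factors Klf2 and Klf4 in endothelial cells, where both are known as shear-induced regulators of a quiescent vessel wall, and in zebrafish *klf2a* is known for its role in shaping the heart valves.

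RNA was sequenced in bulk from 6 groups of 2 libraries each, every library being a pool of 20 adult fish aged from 6 months to 1.5 years. WT fish, of the AB/TU background by the sample labels and of AB/TL by the study's methods, gave the bulbus arteriosus (BA, the elastic outflow chamber), the sinus venosus (SV, the inflow chamber), the atrium and the ventricle. Homozygous *nr2f1a aco* mutants, also labelled AB/TU, whose allele lacks a stretch of the *nr2f1a* 5′UTR and whose hearts effectively have no atrium, gave the SV and the ventricle. There was thus no mutant atrium, and no mutant BA, to compare. The tissue labels of the mutant libraries read WT, whereas their titles and genotype labels read aco, and the titles were followed.

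Library totals ran from 28325098 to 60532949 counts, so that a single read was worth between 0.0229 and 0.0294 CPM (counts scaled to library size with TMM factors). *nr2f1a* transcripts are still made from the aco allele, so their level checks no label. It was 17.9 and 9.67 CPM in WT SV, 13.1 and 24.6 CPM in mutant SV, 1.35 and 1.70 CPM in WT ventricle and 2.05 and 1.48 CPM in mutant ventricle, and highest in WT atrium, at 73.7 and 66.2 CPM. The libraries were made in several batches whose membership is not given in the sources used here, so batch and group cannot be told apart. The p-values rest on the spread between pools within groups, estimated over all 6 groups and drawing on all tested genes. They do not measure the spread between single fish.

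Muscle markers set the chambers apart. The summed level of 9 cardiomyocyte markers was 39022 to 143369 CPM in the atrium and ventricle libraries and 1294 to 4417 CPM in the BA and SV libraries. The summed level of 9 smooth muscle markers was 10106 and 12786 CPM in WT BA, 1221 to 5705 CPM in the SV libraries and 101 to 559 CPM in the others, with *desmb* at 0 in mutant SV replicate 1 and mutant ventricle replicate 2. Enterocyte markers, which do not belong in a heart, summed to 1514 and 1531 CPM in WT SV and to 10.01 CPM or less elsewhere, and hepatocyte markers reached 4780 CPM in mutant SV replicate 1. In bulk tissue, fewer cells of a type and less RNA per cell cannot be told apart.

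The 6 genes were transcribed at very different levels. Scaled for gene length as FPKM, *klf2a* ran from 9.92 to 98.8 and *klf2b* from 11.03 to 108 over the 12 libraries. The channels and *klf4* lay well below them, with *piezo1* at 1.31 to 5.87, *klf4* at 0.384 to 7.11, *trpv4* at 0.283 to 5.59 and *pkd2* at 0.117 to 2.19 FPKM. Reads behind a value numbered from 18 to 312 for *pkd2*, from 20 to 361 for *klf4* and from 48 to 827 for *trpv4*, against 555 or more for the other 3 genes. The counting error was therefore largest for *pkd2* and *klf4*.

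**Figure D1:**
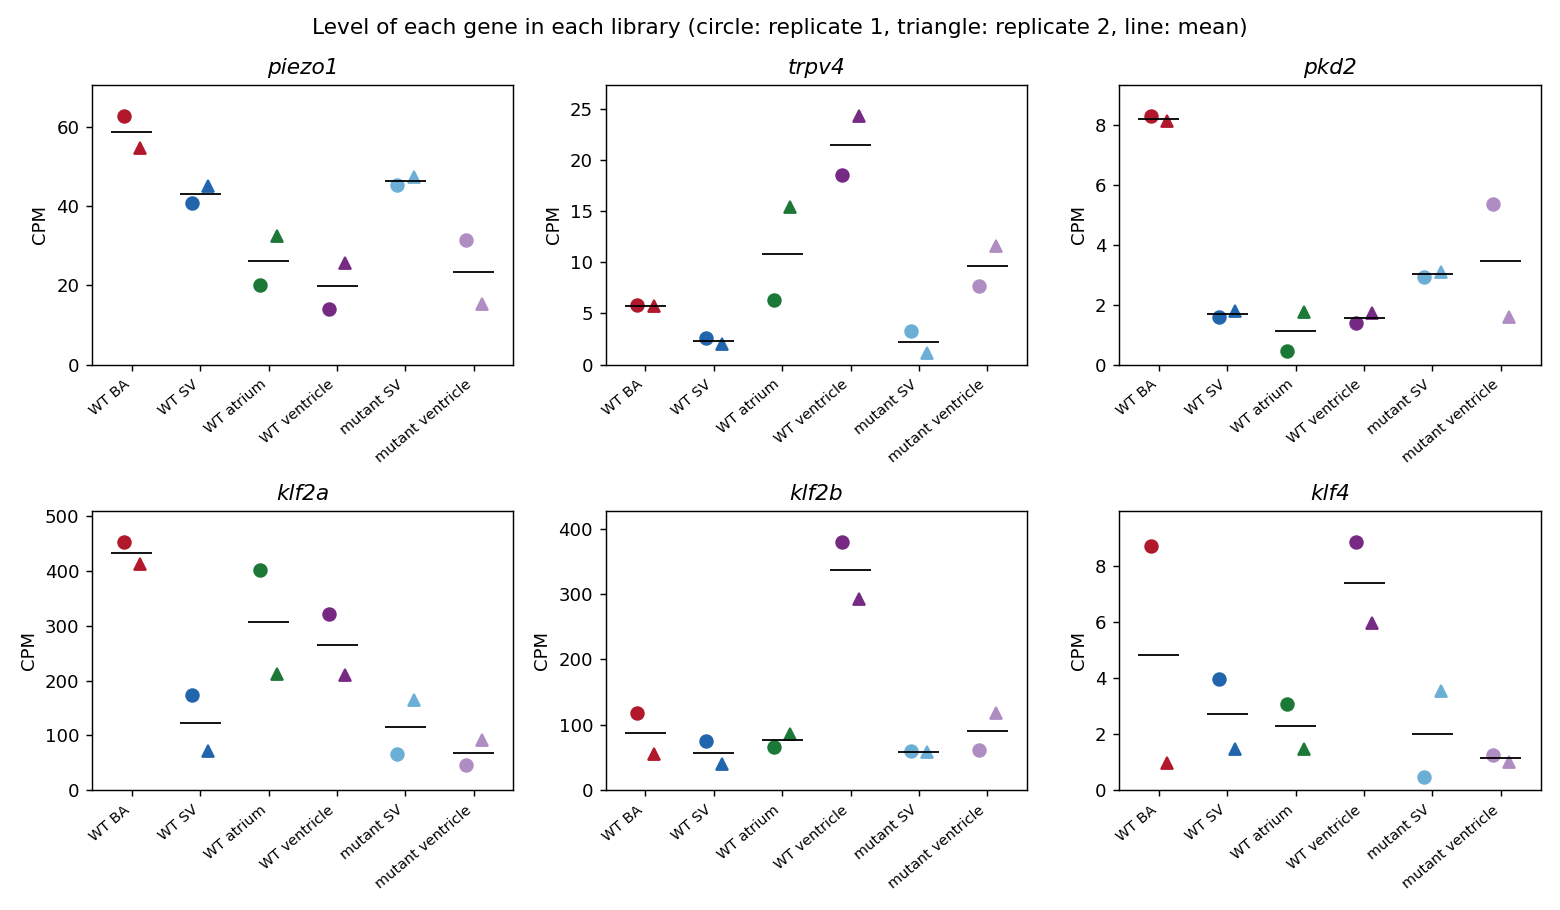
Level of each of the 6 genes in CPM (vertical axis, from 0) in the 12 libraries, grouped by chamber and genotype, with circles for replicate 1, triangles for replicate 2 and lines for the group mean. *pkd2* stood highest in both WT BA libraries at 8.29 and 8.12 CPM, *trpv4* and *klf2b* in both WT ventricle libraries, and *klf2a* was lower in all 4 SV libraries and both mutant ventricle libraries than in the other 6.

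Each gene was compared between groups by edgeR's quasi-likelihood test over all 12 libraries, with 6 group terms and 1 factor of unwanted variation, and was called at a Benjamini-Hochberg adjusted p below 0.05. The WT SV differed from the WT BA in 2 of the 6 genes, against 18.0% of all genes tested, from the WT atrium in 1, against 20.5%, and from the WT ventricle in 3, against 35.5%. The WT BA differed from the WT atrium in 2 of the 6, against 18.4% of all genes, and from the WT ventricle in 4, against 26.6%. The WT atrium differed from the WT ventricle in 1, against 4.97%. Beside these shares, the number of genes called says little by itself, and the results are given gene by gene.

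Between genotypes none of the 6 was called. In the SV, 0 of 6 passed where 1.52% of all genes did, and in the ventricle, 0 of 6 where 0.225% did. DESeq2 called 0 of 6 in the SV, against 5.49% of all genes, and 2 of 6 in the ventricle, against 4.05%. The test of whether the genotype difference itself differed between SV and ventricle called 0 of 6, against 0.204% of genes, and DESeq2 also called 0 of 6 there, against 3.39%. *klf2a* and *klf2b*, 2 of 6, had an unadjusted edgeR p below 0.05 in it, against 12.1% of all genes. Across chambers, 2 of the 6 differed between mutant SV and WT BA, against 7.17%, and 1 between mutant SV and mutant ventricle, against 20.8%.

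**Figure D2:**
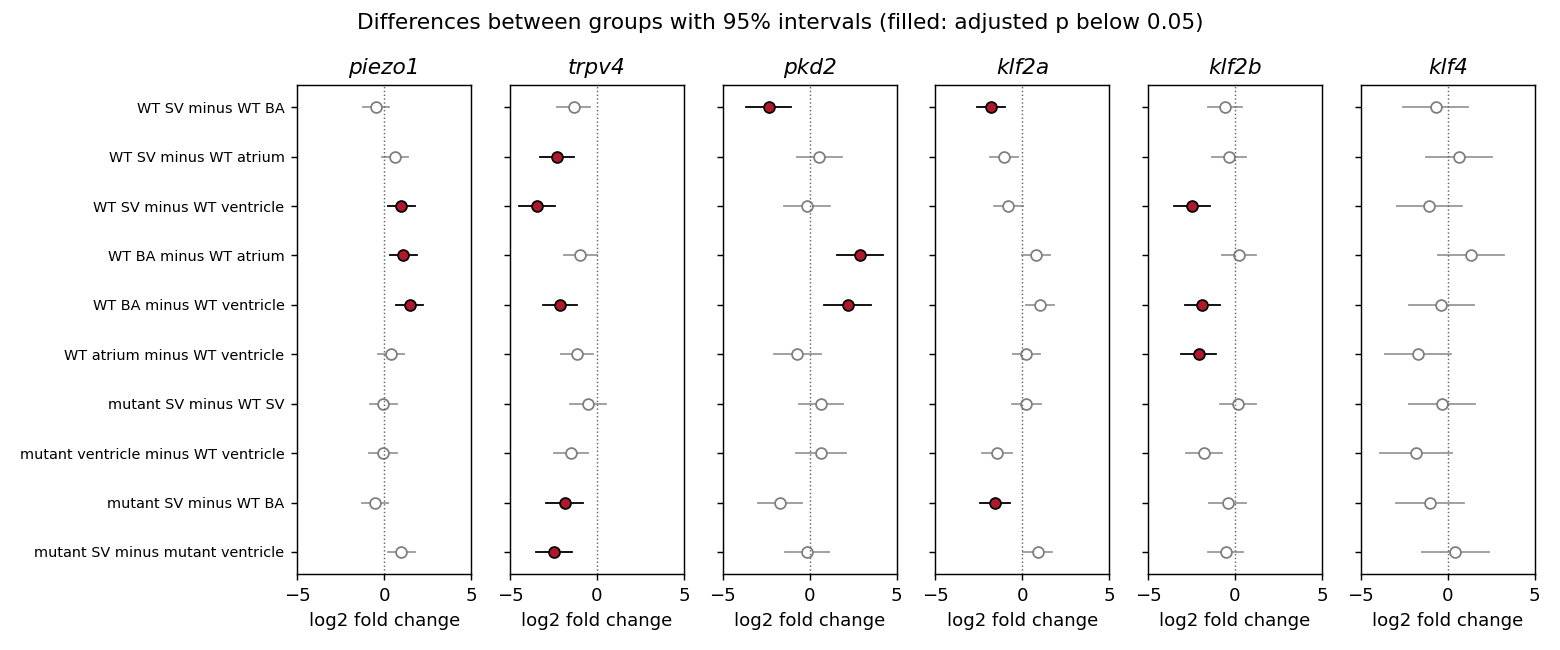
Log2 fold change (horizontal axis) of each gene in the 10 comparisons between 2 groups (rows), with bars for the 95% interval and filled points where the adjusted p was below 0.05. The *trpv4* points of both SV groups against the ventricle of the same genotype lie farthest to the left among the filled points, at -3.43 and -2.47.

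*piezo1*, the stretch-gated channel, was most abundant in the outflow chamber. Its level was 62.9 and 54.8 CPM in WT BA, 45.4 and 47.4 CPM in mutant SV, and 40.8 and 45.2 CPM in WT SV. It was 20.1 and 32.5 CPM in WT atrium, 31.5 and 15.2 CPM in mutant ventricle, and 14.1 and 25.7 CPM in WT ventricle. The 6 libraries of BA and SV thus lay above the 6 of atrium and ventricle without overlap. The BA libraries lay above all 4 SV libraries, and the other neighbours in this order overlapped or lay close.

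*piezo1* was higher in WT BA than in WT ventricle by 1.47 ± 0.35 on the log2 scale (SE, edgeR adjusted p = 0.00941), which is 2.78-fold. Each comparison was repeated in 9 other settings, which changed the scaling, the filter on low counts, the factor of unwanted variation, the replicate block, the tool or the groups fitted. The call was kept in all 9 and lost without WT ventricle replicate 1, where the difference was 1.30 (adjusted p = 0.0999). The differences of the WT BA from the WT atrium, 1.101 ± 0.35 (adjusted p = 0.0469), and of the WT SV from the WT ventricle, 0.98 ± 0.35 (adjusted p = 0.0484), lay just inside the threshold. The first was lost in 5 of 9 other settings and without any of 8 libraries, namely both of the BA, SV and atrium, WT ventricle replicate 2 and mutant SV replicate 2, where it ran from 0.90 to 1.41 (adjusted p 0.0504 to 0.304). The second was lost in 3 of 9 settings and without any of 7 libraries, namely both of the WT SV, WT atrium and mutant SV and WT ventricle replicate 1, where it ran from 0.76 to 1.03 (adjusted p 0.0789 to 0.242). The WT SV and WT BA did not differ past the threshold (-0.49 ± 0.34, adjusted p = 0.352), nor did the WT SV and WT atrium (0.61 ± 0.35, adjusted p = 0.249).

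In the mutant, *piezo1* differed by 0.99 ± 0.34 between the SV and the ventricle, which missed the threshold (edgeR adjusted p = 0.0642). The same difference passed with DESeq2 (adjusted p = 0.0257), without mutant SV replicate 1 (1.36, adjusted p = 0.0232) and without mutant ventricle replicate 1 (1.49, adjusted p = 0.0435). Between genotypes it differed by -0.05 in the SV (95% interval -0.80 to 0.71) and by -0.05 in the ventricle (-0.86 to 0.75).

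*trpv4*, which encodes the channel gated by swelling and shear, ran the other way. Its level was 18.5 and 24.3 CPM in WT ventricle, 6.28 and 15.3 CPM in WT atrium, and 7.68 and 11.6 CPM in mutant ventricle. It was 5.82 and 5.67 CPM in WT BA, 2.63 and 2.05 CPM in WT SV, and 3.23 and 1.16 CPM in mutant SV. Both WT ventricle libraries lay above the other 10, and the 4 SV libraries lay below the other 8.

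*trpv4* was lower in WT SV than in WT ventricle by 10.7-fold (-3.43 ± 0.47, edgeR adjusted p = 3.2e-04), which held in all 9 other settings and without each of the 12 libraries. It was also lower in WT SV than in WT atrium (-2.28 ± 0.45, adjusted p = 0.00444) and in WT BA than in WT ventricle (-2.09 ± 0.45, adjusted p = 0.00499). The former was lost without WT atrium replicate 2, the higher of the atrium libraries (-1.64, adjusted p = 0.0723). The latter held without each library. The atrium fell between its neighbours, with its libraries 2.44-fold apart, and did not differ from the ventricle past the threshold (-1.14 ± 0.43, adjusted p = 0.154). The difference of the WT SV from the WT BA, -1.33 ± 0.44, missed the threshold (adjusted p = 0.0559). It passed with DESeq2 (adjusted p = 0.0457) and without WT ventricle replicate 1 or either mutant ventricle library (-1.36 to -1.38, adjusted p 0.0273 to 0.0476).

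The same order was found in the mutant, where *trpv4* was lower in SV than in ventricle by 5.56-fold (-2.47 ± 0.47, edgeR adjusted p = 0.00329). That call was lost without mutant SV replicate 2 (-1.64, adjusted p = 0.0896) and when only those 2 groups were fitted (-2.02, adjusted p = 0.0755). The mutant SV was also lower than the WT BA (log2 difference -1.86 ± 0.48, adjusted p = 0.0406). This was lost in 5 of 9 other settings and without any of 7 libraries, namely both of the BA, atrium and mutant SV and WT SV replicate 2, where it ran from -2.29 to -0.90 (adjusted p 0.0509 to 0.387). The summed cardiomyocyte markers given above were high in the same chambers as *trpv4*, and their part in these differences was not tested.

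*pkd2* stood highest in the outflow chamber. It was at 8.29 and 8.12 CPM in WT BA, against 1.58 and 1.77 CPM in WT SV, 0.451 and 1.77 CPM in WT atrium and 1.38 and 1.73 CPM in WT ventricle. The mutant libraries were at 2.93 and 3.08 CPM in the SV and 5.34 and 1.59 CPM in the ventricle. The BA libraries were above all 10 others, and the 3 other WT chambers overlapped.

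*pkd2* was higher in WT BA than in WT atrium by 7.40-fold (2.89 ± 0.61, edgeR adjusted p = 0.00656), than in WT ventricle by 4.56-fold (2.19 ± 0.61, adjusted p = 0.0205), and than in WT SV by 5.07-fold, the SV minus BA difference being -2.34 ± 0.59 (adjusted p = 0.0196). The atrium call was lost without WT atrium replicate 1 (2.25, adjusted p = 0.0824). The ventricle call was lost without BA replicate 1 or either library of the WT ventricle or mutant SV (1.71 to 2.51, adjusted p 0.0511 to 0.0680). The SV call was lost without BA replicate 1 or either WT SV library (-2.31 to -2.27, adjusted p 0.0625 to 0.129). The mutant SV minus WT BA difference was -1.70 ± 0.59 (adjusted p = 0.105). An unnamed protein-coding gene, LOC101885315, overlaps *pkd2* in the RefSeq annotation of another zebrafish build and has no row of its own under that name in the count table, so reads of both may stand in the *pkd2* row.

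*pkd1a*, which encodes the receptor-like partner of Pkd2, followed the same pattern across the WT chambers. It was at 77.0 and 91.4 CPM in WT BA and at 9.61 to 16.5 CPM in the 6 libraries of the other WT chambers. Its mutant levels were 36.1 and 39.5 CPM in the SV and 15.9 and 10.004 CPM in the ventricle. A list of 16 other genes tested held mechanically gated channels and related channel or partner genes. Of these, *pkd1a* had the smallest edgeR adjusted p between the WT SV and the WT BA (-2.52 ± 0.32, adjusted p = 5.2e-04). It also had the smallest between the WT BA and the WT ventricle (2.66 ± 0.32, adjusted p = 1.7e-04). Both calls held in all 9 other settings and without each library. The mutant SV minus WT SV difference was 1.23 ± 0.31, with libraries that did not overlap and an adjusted p of 0.0877, and DESeq2 alone among the 9 settings called it (adjusted p = 0.00734). The mutant SV was lower than the WT BA in *pkd1a* (-1.29 ± 0.31, adjusted p = 0.0326). This was lost in 4 of 9 settings and without any of 8 libraries, namely both of the BA, atrium and mutant SV, WT SV replicate 2 and WT ventricle replicate 2 (-1.47 to -1.03, adjusted p 0.0506 to 0.163).

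Other channel genes differed between chambers. *kcnk4a*, a mechanically gated potassium channel gene, had 544 and 362 reads in WT BA and 0 and 1 in WT atrium (edgeR adjusted p = 1.9e-04). *tmem63bb*, of the osmosensitive Tmem63 family, was at 6.68 and 8.80 CPM in WT SV and 0.147 and 0.851 CPM in WT ventricle, a difference of 3.89 ± 0.69 (adjusted p = 0.00151). Of the 16 genes of this list, 3 were higher and 3 lower in WT SV than in WT BA, 7 higher and 0 lower than in WT ventricle, and 3 higher and 0 lower than in WT atrium, where 18.0%, 35.5% and 20.5% of all genes were called. The WT BA had 4 higher and 0 lower than the ventricle, and 3 higher and 1 lower than the atrium, against 26.6% and 18.4% of all genes. The median log2 difference of the list was 1.598 between the WT SV and the WT ventricle, where that of all genes was 0.21. None of the 16 was called between genotypes by edgeR. At an unadjusted p below 0.05 there were 3 in the SV and 1 in the ventricle, and DESeq2 called 1 in the SV (*pkd1a*) and 0 in the ventricle. Of all genes, 14.0% and 14.3% had such a p, DESeq2 called 5.49% and 4.05%, and edgeR called 1.52% and 0.225%.

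The summed smooth muscle markers, like *piezo1*, *pkd2* and *pkd1a*, were highest in both WT BA libraries. By chamber, *piezo1* stood in the same order as these sums, with the BA above the SV and the SV above atrium and ventricle. For *pkd2* the SV libraries of both genotypes overlapped those of atrium and ventricle. For *pkd1a* those of WT SV did so, whereas both mutant SV libraries lay above all libraries of atrium and ventricle. The mutant SV minus mutant ventricle difference of *pkd1a* was 1.53 ± 0.31 (edgeR adjusted p = 0.00468). That call was kept in all 9 other settings and in 11 of 12 fits with a library left out. The difference ran from 1.24 to 1.83 over those 12 fits. In WT SV the sums were 3379 and 2627 CPM, with *pkd2* at 1.58 and 1.77 CPM and *pkd1a* at 13.4 and 16.5 CPM. In mutant ventricle replicate 1 the sum was 101 CPM, the lowest of the 12, with *pkd2* at 5.34 CPM, its highest level outside the BA. Within the mutant SV, the summed level of the smooth muscle markers was 1221 CPM in replicate 1 and 5705 CPM in replicate 2. There *piezo1* was at 45.4 and 47.4 CPM, *pkd2* at 2.93 and 3.08 CPM and *pkd1a* at 36.1 and 39.5 CPM. The part of smooth muscle in the differences between chambers was not tested.

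*klf2a*, the shear-induced factor of the endocardium, was high in WT BA at 453 and 413 CPM, in WT atrium at 402 and 211 CPM and in WT ventricle at 322 and 210 CPM. It was at 174 and 71.1 CPM in WT SV, 67.0 and 164 CPM in mutant SV and 45.5 and 91.8 CPM in mutant ventricle. The 6 libraries of the first set lay above the 6 of the second without overlap, and within each set neighbouring groups overlapped, apart from the BA, which lay above both atrium libraries and both ventricle libraries.

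*klf2a* was lower in WT SV than in WT BA by 3.49-fold (-1.80 ± 0.37, edgeR adjusted p = 0.00755). This was lost in 3 of 9 other settings and without WT SV replicate 2, the lower of its libraries, where the difference was -1.27 (adjusted p = 0.0826). The mutant SV was lower than the WT BA by 3.004-fold (-1.59 ± 0.39, adjusted p = 0.0344). That call was lost in 6 of 9 other settings and without any of 5 libraries, namely both of the BA and atrium and mutant SV replicate 1 (-1.63 to -1.47, adjusted p 0.0553 to 0.138). The WT SV minus WT atrium difference was -1.04 ± 0.37 (adjusted p = 0.0719), and it passed without WT SV replicate 1 (-1.73, adjusted p = 0.0230) or mutant ventricle replicate 1 (-1.12, adjusted p = 0.0489). The BA and the ventricle differed by 1.01 ± 0.37 (adjusted p = 0.0667), which passed without WT SV replicate 1 (0.97, adjusted p = 0.0487) and in 2 of 9 other settings.

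*klf2b*, the second zebrafish copy of Klf2, stood highest in WT ventricle. It was at 380 and 293 CPM in WT ventricle, 66.1 and 86.2 CPM in WT atrium, 118 and 55.8 CPM in WT BA and 75.0 and 39.7 CPM in WT SV. In the mutant it was at 59.4 and 58.2 CPM in the SV and 61.6 and 119 CPM in the ventricle. The WT ventricle libraries were above all 10 others, and the other 5 groups overlapped or lay close.

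*klf2b* was lower in WT SV than in WT ventricle by 5.49-fold (-2.46 ± 0.47, edgeR adjusted p = 0.00236), in all 9 other settings and without each library. It was lower in WT BA than in WT ventricle by 3.67-fold (-1.88 ± 0.46, adjusted p = 0.0112), and in WT atrium by 4.25-fold (-2.09 ± 0.46, adjusted p = 0.0297). The BA call was lost without BA replicate 2 (-1.47, adjusted p = 0.0619) or WT ventricle replicate 1 (-1.83, adjusted p = 0.0510). The atrium call was lost without either atrium library or WT ventricle replicate 1 (-2.34 to -1.77, adjusted p 0.0822 to 0.329).

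The 2 copies of Klf2 thus stood in different proportion from chamber to chamber. Of their joint FPKM, *klf2a* held 75.1% and 85.3% in WT BA, 82.7% and 65.8% in WT atrium and 64.5% and 58.4% in WT SV. It held 39.9% and 36.0% in WT ventricle and 36.7% and 37.8% in mutant ventricle. The mutant SV libraries were at 46.9% and 68.9%. The 4 ventricle libraries, of either genotype, were below the 8 others, although the joint level was 179 and 118 FPKM in WT ventricle and 27.0 and 49.0 FPKM in mutant ventricle. The authors counted reads that aligned to a single place, so reads shared by both copies are in neither row.

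**Figure D3:**
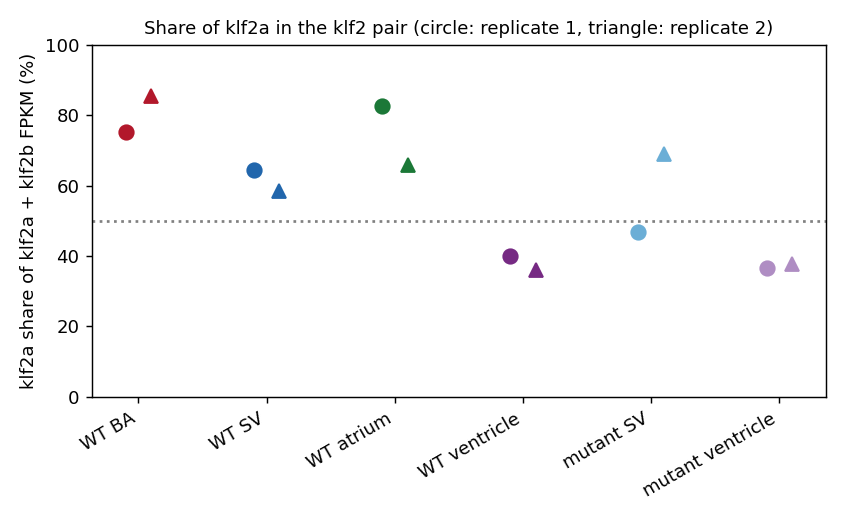
Share of *klf2a* in the joint FPKM of *klf2a* and *klf2b* (vertical axis, in percent) in each of the 12 libraries, with circles for replicate 1, triangles for replicate 2 and a dotted line at equal shares. The 4 ventricle libraries lie between 36.0% and 39.9%, below the 46.9% to 85.3% of the other 8.

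*klf4*, the other shear-induced factor, was scarce and uneven. It was at 8.87 and 5.96 CPM in WT ventricle, 8.73 and 0.962 CPM in WT BA, 3.96 and 1.47 CPM in WT SV and 3.08 and 1.47 CPM in WT atrium. In the mutant it was at 0.458 and 3.54 CPM in the SV and 1.276 and 1.01 CPM in the ventricle. The 2 BA libraries were 9.07-fold apart and the 2 mutant SV libraries 7.73-fold apart. No comparison over all 12 libraries called *klf4*. Its difference between the WT atrium and the WT ventricle was -1.71 ± 0.86 (edgeR adjusted p = 0.279), and that between the WT BA and the WT ventricle was -0.36 with a 95% interval of -2.20 to 1.49, turning to 0.48 without BA replicate 2. The WT BA minus WT atrium difference was 1.35 (adjusted p = 0.325), which passed without BA replicate 2 (2.23, adjusted p = 0.0363) and turned to -0.78 without BA replicate 1 (adjusted p = 0.675).

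The genotype contrast compares hearts of *nr2f1a aco* mutants, which effectively have no atrium, with WT hearts. The *nr2f1a* mutation, the missing atrium and library batch cannot be told apart in it. In the mutant ventricle, all 3 Klf genes and *trpv4* were below the WT ventricle in every library. *klf2a* was at 45.5 and 91.8 CPM against 322 and 210 CPM, a difference of -1.45 ± 0.38 (edgeR adjusted p = 0.146). *klf2b* was at 61.6 and 119 CPM against 380 and 293 CPM, a difference of -1.77 ± 0.47 (adjusted p = 0.150). These differences missed the threshold in this test.

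For *trpv4* the mutant ventricle minus WT ventricle difference was -1.48 ± 0.45 (edgeR adjusted p = 0.188), and for *klf4* -1.83 ± 0.92 (adjusted p = 0.399). For *pkd2* it was 0.64 with a 95% interval of -0.81 to 2.09. The libraries of the genotypes did not overlap in 4 of the 6 genes, whereas 47.2% of all genes had no overlap. At an unadjusted p below 0.05 there were 3 of the 6, *klf2a*, *klf2b* and *trpv4*, against 14.3% of all genes. DESeq2 with the same factor of unwanted variation called *klf2a* (-1.46, adjusted p = 0.0184) and *klf2b* (-1.79, adjusted p = 0.0235). The other 8 settings and the 12 fits without a library called neither.

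The summed level of 10 endothelial markers was 483 and 554 CPM in mutant ventricle and 978 and 840 CPM in WT ventricle, with no marker at 0. Their part in the Klf differences was not tested. In the other WT chambers these markers summed to 873 and 933 CPM in the BA, 530 and 547 CPM in the atrium and 418 and 309 CPM in the SV.

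In the SV no difference between genotypes passed the threshold. *klf2a* differed by 0.22 (95% interval -0.62 to 1.05), *klf2b* by 0.16 (-0.87 to 1.19), *klf4* by -0.33 (-2.23 to 1.57), *trpv4* by -0.52 (-1.55 to 0.50) and *pkd2* by 0.64 (-0.63 to 1.91), mutant minus WT. The interval of *klf4* leaves room for a difference of over 2-fold in either direction, those of *klf2a*, *klf2b* and *pkd2* for one of over 2-fold higher in the mutant, and that of *trpv4* for one of over 2-fold lower. None of the 6 passed at an unadjusted p below 0.05, where 14.0% of all genes did. The libraries did not overlap for *piezo1* and *pkd2*, 2 of the 6, whereas 47.6% of all genes had no overlap. For *piezo1* the gap was narrow, at 45.36 CPM in mutant SV replicate 1 and 45.18 CPM in WT SV replicate 2. Its fitted difference, -0.05, had the opposite direction.

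Tested directly, the genotype difference in the SV minus that in the ventricle was 1.67 ± 0.52 for *klf2a* (edgeR adjusted p = 0.234) and 1.93 ± 0.63 for *klf2b* (adjusted p = 0.256). Neither passed. Within the mutant, *klf2a* differed by 0.88 ± 0.37 between the SV and the ventricle (adjusted p = 0.124), which DESeq2 called (adjusted p = 0.0470). *klf2b* differed there by -0.53 ± 0.46 (adjusted p = 0.474).

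The 2 libraries of a group often disagreed in *klf2a* and *klf4*, and they did so together with immediate early genes, the *fos*, *jun* and *egr* transcription factor genes that many stimuli switch on within minutes. This list of 16 genes was chosen after their values had been seen. Its summed level was 10797 and 5741 CPM in WT BA, 9757 and 2742 CPM in WT SV, 13109 and 6463 CPM in WT atrium and 5081 and 2456 CPM in WT ventricle. In the mutant the order of the replicates was the reverse, at 2551 and 11577 CPM in the SV and 1897 and 3301 CPM in the ventricle.

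The library with the higher immediate early level was also the higher in *klf2a* in 6 of 6 groups, by 1.098- to 2.45-fold. It was the higher in *klf4* in 5 of 6 groups and in *klf2b* in 4 of 6. For *trpv4* this was so in 3 of 6 groups, and for *piezo1* and *pkd2* in 2 of 6. No share of all genes is given beside these counts, so they are not read as particular to the Klf genes. At an immediate early level between 2456 and 3301 CPM, *klf2a* was at 210 CPM in WT ventricle replicate 2, 67.0 CPM in mutant SV replicate 1, 71.1 CPM in WT SV replicate 2 and 91.8 CPM in mutant ventricle replicate 2. These are single libraries, so no comparison between groups is drawn from them. In every group the factor of unwanted variation was lower in the library with the higher immediate early level. The factor was estimated from differences between replicates over all tested genes, so it is not independent of these levels. For replicates 1 and 2 it was -1.72 and 0.384 in WT ventricle and 1.09 and -0.230 in mutant ventricle. The main differences between groups were fitted with that factor in the model. The part of the immediate early state in the Klf differences between groups was not tested.

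**Figure D4:**
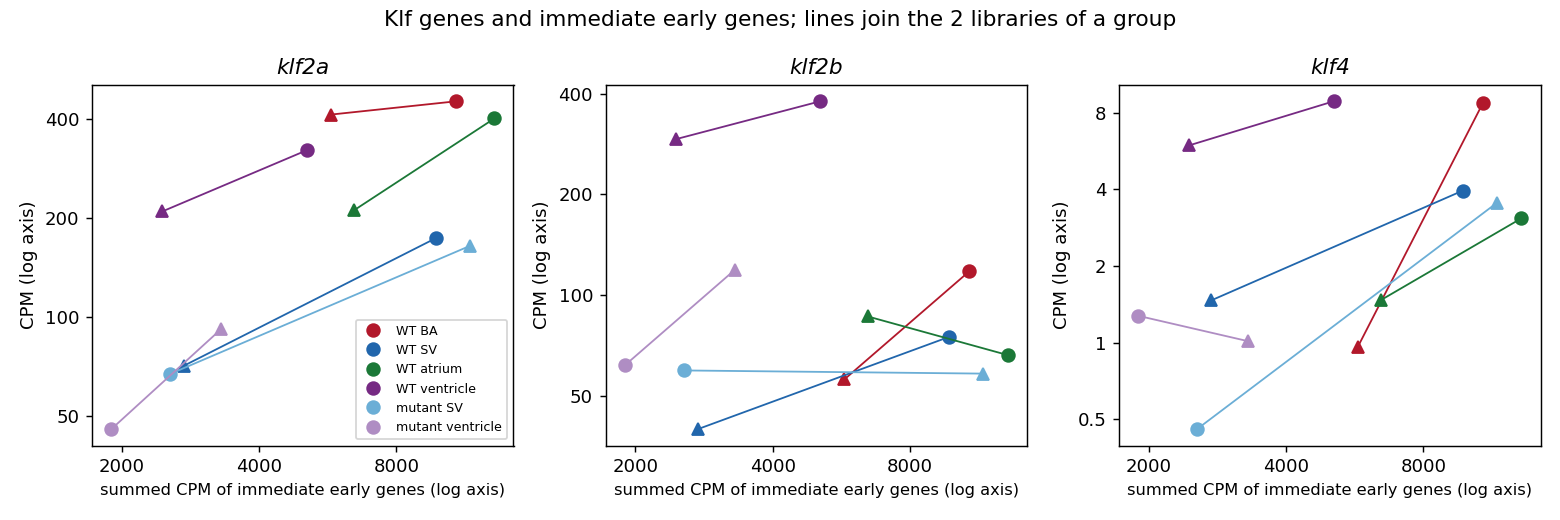
Level of *klf2a*, *klf2b* and *klf4* (vertical log axes, in CPM) against the summed level of 16 immediate early genes (horizontal log axis, in CPM), with a line joining the 2 libraries of each group, circles for replicate 1 and triangles for replicate 2. The *klf2a* lines rise to the right in 6 of 6 groups, and both WT ventricle libraries lie above both mutant ventricle libraries in each panel.

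Genes with a profile most like each of the 6 over the 12 libraries were sought among genes of similar level, by Pearson's r of log2 CPM, as a description in which the groups set most of the spread. *klf2a* was followed most closely by *klf6a*, another Krüppel-like gene, with r = 0.948, then by *lats2*, a Hippo pathway kinase gene, with 0.922, and by *chac1* with 0.908. *klf2b* was followed by *wasf3b* (0.967), *rnf25* (0.931) and *arih2* (0.929), and *klf4* by *rnd3a* (0.904), *stard9* (0.894) and *tekt3* (0.890). *piezo1* was followed by *slc25a24* (0.953), *serpinb1* (0.952) and *fkbp7* (0.950), *trpv4* by *trak1* (0.965), *cops3* (0.962) and *slc6a8* (0.959), and *pkd2* by *gtdc1* (0.952), *tmem168a* (0.937) and *mtss1lb* (0.934). *klf6a* itself was at 454 and 305 CPM in WT BA, 299 and 299 CPM in WT ventricle and 99.6 and 124 CPM in mutant ventricle. Among the 6 genes themselves, r was 0.76 between *trpv4* and *klf2b*, 0.68 between *piezo1* and *pkd2* and 0.37 between *klf2a* and *klf2b*.

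Other Krüppel-like genes varied with chamber, each in its own way. Of 16 tested, 4 were higher and 2 lower in WT SV than in WT ventricle, and 1 was higher and 4 lower in WT BA than in WT ventricle, against 35.5% and 26.6% of all genes. *klf11b* was lower in WT SV than in WT ventricle (log2 difference -2.82 ± 0.36, edgeR adjusted p = 2.1e-04) and than in WT atrium (-2.61 ± 0.36, adjusted p = 6.1e-04), in all 9 other settings and without each library. *klf3* was lower in WT atrium than in WT ventricle (-1.78 ± 0.41, adjusted p = 0.0325), the same direction as *klf2b*, but this was lost in 3 of 9 settings and without any of the 4 libraries of those groups (-1.99 to -1.62, adjusted p 0.0520 to 0.323). *klf5l* had 94 and 64 reads in WT SV, 42 and 24 in mutant SV and 0 in both BA libraries. In the mutant ventricle against the WT ventricle edgeR called none, and the median of the 16 was -0.65, where that of all genes was 0.02. There 8 of the 16 had an unadjusted p below 0.05, and DESeq2 called 4, *klf6a*, *klf11b*, *klf12b* and *klf17*, where 14.3% and 4.05% of all genes did so. In the SV between genotypes edgeR called none, 2 had an unadjusted p below 0.05, against 14.0% of all genes, and DESeq2 called *klf11a*, against 5.49%. *klf17* had the smallest adjusted p in the ventricle, with 8.14 and 14.6 CPM against 51.8 and 40.6 CPM (-1.93 ± 0.47, adjusted p = 0.119).

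Klf2 lies downstream of a kinase cascade that ends in Mef2 factors and is held back by the Ccm proteins, which Heg1 brings to cell junctions. Of 15 such genes tested, 8 were lower and 0 higher in WT SV than in WT ventricle, and 5 lower and 1 higher in WT BA than in WT ventricle, against 35.5% and 26.6% of all genes. The medians were -1.27 and -0.40, where those of all genes were 0.21 and 0.16. The list mixes genes that raise Klf2 with genes that hold it back, so its direction is no reading of the drive on Klf2. In WT SV against WT ventricle, 8 of 9 cardiomyocyte markers were lower and 1 higher. Of 10 endothelial markers, 6 were lower and 0 higher there. The part of these cell types in the differences of the list was not tested. *heg1* had the smallest adjusted p of the list in both contrasts. It was at 27.2 and 31.3 CPM in WT ventricle, 4.64 and 3.80 CPM in WT SV and 5.25 and 10.1 CPM in WT BA, the SV difference being -2.92 ± 0.40 (edgeR adjusted p = 3.0e-04) and the BA difference -2.04 ± 0.38 (adjusted p = 0.00247). *mef2ca*, which encodes one of those Mef2 factors, was lower in mutant SV than in mutant ventricle (-3.52 ± 0.60, adjusted p = 0.00182). It was 1 of 5 of the 15 called lower there, with 0 higher, against 20.8% of all genes called in either direction. None of the 15 was called between genotypes by edgeR. In the SV 0 had an unadjusted p below 0.05 and DESeq2 called 0, and in the ventricle 4 did and DESeq2 called 2, *heg1* and *ccm2l*. The shares of all genes were 14.0% and 5.49% in the SV and 14.3% and 4.05% in the ventricle. *ccm2l* had the smallest adjusted p in the ventricle, at 3.88 and 6.17 CPM in mutant and 12.9 and 16.8 CPM in WT (-1.84 ± 0.49, adjusted p = 0.150).

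Of 15 endothelial flow receptor genes tested, 6 were lower and 0 higher in WT SV than in WT BA, where 18.0% of all genes were called in either direction and the medians were -0.64 for the list and 0.06 for all genes. Of 10 general endothelial markers, 8 were lower and 0 higher in WT SV, with a median of -1.46. *cdh5*, *kdrl*, *tie1*, *tek* and *pecam1* stand in both lists, so the lists are not independent of each other. The markers summed to 418 and 309 CPM in WT SV and 873 and 933 CPM in WT BA, and their part in the receptor differences was not tested. The smallest adjusted p of the receptor list was that of *nrp1a*, a semaphorin and Vegf co-receptor gene, with a difference of -2.00 ± 0.35 (edgeR adjusted p = 0.00314). *pecam1*, a junctional flow sensor gene, was higher in WT BA than in WT atrium by 3.90 ± 0.37 (adjusted p = 6.1e-05). *s1pr1*, a sphingosine-1-phosphate receptor gene, was higher in WT BA than in WT ventricle by 4.89 ± 0.56 (adjusted p = 1.4e-04). *flt4*, a venous and lymphatic Vegf receptor gene, was higher in the SV than in ventricle in WT (3.55 ± 0.46, adjusted p = 2.1e-04) and in mutant (3.12 ± 0.43, adjusted p = 6.1e-04). None of the 15 was called between genotypes by edgeR. An unadjusted p below 0.05 was found for 2 in the SV and 3 in the ventricle, against 14.0% and 14.3% of all genes. DESeq2 called 0 and 1 (*tek*), against 5.49% and 4.05%.

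Of 17 flow and Klf2 target genes tested, 3 were higher and 7 lower in WT SV than in WT BA, against 18.0% of all genes. Against the WT ventricle 5 were higher and 5 lower, against 35.5% of all genes. Of 10 endothelial markers, 8 were lower and 0 higher in WT SV than in WT BA. *egfl7* and *esama* stand in both lists, and the part of endothelial cells in the target differences was not tested. *apln*, which encodes the peptide apelin, was at 481 and 300 CPM in WT SV and 32.5 and 45.1 CPM in WT BA (3.34 ± 0.35, edgeR adjusted p = 2.1e-04). *cyp1b1*, which is shear-induced in endothelial cells, was at 1.03 and 0.606 CPM in WT SV and 32.2 and 110 CPM in WT ventricle (-6.51 ± 0.68, adjusted p = 9.9e-05). Between genotypes, the SV had 1 gene higher and 1 lower, against 1.52% of all genes called in either direction. *fn1b*, a fibronectin gene, was at 13399 and 5143 CPM in mutant SV and 946 and 1063 CPM in WT SV (2.47 ± 0.38, adjusted p = 0.00994), and *apln* was the gene that was lower (99.1 and 124 CPM in the mutant). The *fn1b* call was lost in 3 of 9 settings and without either WT SV library (2.39 to 2.52, adjusted p 0.0630 to 0.1001). The *apln* call was lost in 3 of 9 settings and without any of 5 libraries, namely both of the atrium and mutant SV and WT SV replicate 1 (-1.92 to -1.39, adjusted p 0.0765 to 0.188). Enterocyte markers summed to 1514 and 1531 CPM in WT SV and to 10.01 and 5.34 CPM in mutant SV. Of these markers, 9 of 9 were called lower in mutant SV than in WT SV. The part of such foreign tissue in the *apln* difference was not tested. In the ventricle edgeR called none between genotypes, against 0.225% of all genes. There 4 had an unadjusted p below 0.05, against 14.3%, and DESeq2 called 1 (*edn1*), against 4.05%.

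The Yap and Taz pathway reads stretch through the cytoskeleton and acts with Tead factors on genes such as those of the Ctgf and Cyr61 matrix proteins. Of 16 genes tested, 7 were higher and 0 lower in WT BA than in WT ventricle, and 1 was higher and 7 lower in WT SV than in WT BA, against 26.6% and 18.0% of all genes. The medians were 1.01 and -1.83, where those of all genes were 0.16 and 0.06. *cyr61l2*, a Cyr61-like gene, was at 206 and 211 CPM in WT BA, 19.3 and 13.1 CPM in WT SV and 22.9 and 65.5 CPM in mutant SV. It was higher in mutant SV than in WT SV by 1.81 ± 0.33 (edgeR adjusted p = 0.0224), the 1 gene of the list that edgeR called there. This was lost in 4 of 9 settings and without any of 7 libraries, namely both of the WT SV, atrium and WT ventricle and mutant SV replicate 2 (1.11 to 1.98, adjusted p 0.0571 to 0.223). In the SV 5 of the 16 had an unadjusted p below 0.05 between genotypes, against 14.0% of all genes. DESeq2 called 2 there, *tead3a* and *cyr61l2*, against 5.49%. In the ventricle edgeR called 0, 2 had an unadjusted p below 0.05, and DESeq2 called 0. *ctgfa* was higher in mutant SV than in mutant ventricle by 3.37 ± 0.41 (adjusted p = 3.1e-04), and *tead3a* was lower in WT SV than in WT ventricle (-3.59 ± 0.38, adjusted p = 7.7e-05). Over the 6 lists, 95 genes were tested. Between genotypes, edgeR called 3 in the SV and 0 in the ventricle, DESeq2 called 6 and 8, and 14 and 22 had an unadjusted p below 0.05. For all genes the shares were 1.52% and 0.225% with edgeR, 5.49% and 4.05% with DESeq2, and 14.0% and 14.3% at an unadjusted p below 0.05, so that the SV counts of the 95 genes with DESeq2 and at an unadjusted p lay near the background. The ventricle counts by the same measures lay above it, and whether by more than chance was not tested.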

How the data were processed

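Bulk RNA-seq of 12 libraries (6 groups of 2) was used. After trimming (cutadapt), the authors mapped reads to danRer11 using STAR, retained those with a unique position, handled every library as single-end and assigned reads to genes by featureCounts (Subread). They deposited raw counts per gene and FPKM, which the authors scaled for gene length and library size. Columns in which the authors deposited group means (6) and log2 fold changes with p-values of 8 comparisons, made with DESeq2, were not used.

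Counts were tested with edgeR 4.0.16 (limma 3.58.1, R 4.3.3): TMM scaling, the default filter on low counts (19145 of 22158 genes kept), 6 groups plus 1 factor of unwanted variation estimated from replicates as the study's RUVs step does, and robust quasi-likelihood F tests, two-sided, with Benjamini-Hochberg adjustment over the whole table within each of 11 comparisons. Intervals are 95%. DESeq2 1.42.0 was an alternative, as were other scaling, filters, factors, groups and leaving out each library. The code was tested on simulated data. Figures were drawn with matplotlib 3.10.9 in Python 3.11.15. Correlations used log2 CPM with a prior count of 2, among genes with a mean within 3 log2 units. CPM of listed genes were computed from the counts.

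The 6 genes and all gene lists were chosen with earlier results of these data known. The naming rule took the 6 genes in every comparison, from each list the gene with the smallest adjusted p in a comparison described, and for each of the 6 the 3 most alike named genes. *pkd1a*, *kcnk4a*, *klf3* and *klf6a* are named under that rule. Not every gene under the rule was named above. *klf12a* had the smallest adjusted p of the other Krüppel-like genes in the WT BA minus WT ventricle (3.22 ± 0.65, edgeR adjusted p = 0.00443). The immediate early list was added after values were seen. Gene names are those of the files. Sequences were not printed. Replicates of a group differed by more than sampling noise in all 6 groups. Leukocyte markers summed to 128 to 831 CPM, epicardial markers to 102 to 466 CPM, red blood cell markers to 3151 to 92761 CPM and epithelial markers to 59.2 to 1575 CPM per library. Counting intervals would cover counting error only.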

Additional observations from a re-analysis of the deposited data

How the results depend on the processing

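The number of the 6 genes called depended on the fit, as did the share of all genes called, which is given in brackets. The WT SV minus WT BA count of 2 (18.0%) became 1 with no factor of unwanted variation (13.0%), 0 with a replicate block in its place (8.71%) and 1 with only those groups fitted (15.0%). The WT BA minus WT atrium count of 2 (18.4%) became 1 in each of 5 settings: no factor, no filter, a replicate block in place of or beside the factor, and only those groups (12.7% to 15.7%). For the WT atrium minus WT ventricle, 1 (4.97%) became 0 with a block replacing the factor (1.07%) or added to it (2.23%). The mutant SV minus WT BA count of 2 (7.17%) became 0 with no factor (5.51%), with DESeq2 size factors (6.78%), with the blocks (2.48% and 3.71%) and with only those groups, where edgeR called 0 of all 16836 genes, and 1 with a mean of at least 1 CPM (8.45%). With DESeq2 the mutant ventricle minus WT ventricle count of 0 (0.225%) became 2 (4.05%), and the mutant SV minus mutant ventricle count of 1 (20.8%) became 3 (26.2%), which was 0 with only those groups (13.4%). The causes of these shifts were not tested. The shared replicate numbers are not shown by the labels to pair libraries, and the block changed no other count by over 1.5 times. By the study's methods, whole hearts were parted into chambers before pooling, so libraries of a genotype may share fish. The block joined WT and mutant libraries of the same replicate number, so it cannot check such a pairing within a genotype.

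Leaving out each library in turn gave 0 to 3 calls for the WT SV minus WT BA, 0 to 2 for the WT SV minus WT atrium, 0 to 2 for the WT BA minus WT atrium, 1 to 5 for the WT BA minus WT ventricle, 0 to 1 for the WT atrium minus WT ventricle, 0 to 2 for the mutant SV minus WT BA and 0 to 2 for the mutant SV minus mutant ventricle. Where a group kept 1 library, that library was assumed to vary like the other groups. In each of these comparisons the share of all genes called also changed with the library left out. The ranges of calls are therefore not read as particular to the genes followed here.

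Signs also turned for differences of the 6 genes that had missed the threshold over all libraries. In the mutant SV minus WT SV, *piezo1* was 0.11 with no factor, 0.11 with a replicate block in its place and 0.10 with only those groups (-0.30 to 0.19 with a library left out), and *klf2a* was -0.081, -0.029 and -0.11 (-0.44 to 0.85). In the mutant ventricle minus WT ventricle, *piezo1* was 0.23, 0.26 and 0.34 in those settings, 0.0022 with no filter and 0.028 with a mean of at least 1 CPM (-0.42 to 0.54). With a library left out, *pkd2* there ran from -0.047 to 1.58. In the mutant SV minus WT SV, *klf4* ran from -2.25 to 0.39, *klf2b* from -0.29 to 0.64 and *trpv4* from -1.003 to 0.39, and *klf4* ran from -2.52 to 0.48 in the WT BA minus WT ventricle and from -0.78 to 2.23 in the WT BA minus WT atrium, where it was called without BA replicate 2 (adjusted p = 0.0363).

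Of 621 values of 69 differences under the other settings, 557 kept direction and side of the threshold. DESeq2 size factors moved the median of all genes by 0.11 in the WT SV minus WT atrium and by less than 0.1 elsewhere. Low counts limit *pkd2* and *klf4*, and 2 pools a group limit all 6 genes.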
